A study of Mus musculus with 15 samples.

Results

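The 9 genes described here make, break down and regulate glycogen in the liver. They are Ugp2, Gys2 and Gbe1 of synthesis, Pygl of breakdown, Phka2 and Phkg2 of the kinase that activates Pygl, and Ppp1r3b, Ppp1r3c and Ppp1r3g, which bring a phosphatase to glycogen. The members were chosen by name from 56980 Ensembl gene IDs, with earlier results of these data known. Their counts are therefore set beside those of all genes as a description only. All 9 were found and passed the filter on low counts, as did 14627 genes in all. RNA came from livers of wild-type male C57BL/6J mice placed at 15 weeks of age on 1 of 3 diets for 9 months, to ask how a ketogenic diet affects liver gene expression. The control diet held 10% fat, the high-fat diet 60% and the ketogenic diet 89.9%. Each diet had 5 libraries. Control replicate 1 was contaminated according to the submitters and was left out, so 4 controls were compared with 5 libraries of each other diet. Nothing in the labels ties a library to its own mouse, and a p-value therefore reflects the spread among these libraries, which may be technical. Every library title also carries the letters ALF, which the titles do not spell out. Beyond these letters, the sources used here do not give the feeding state or the time of day at collection.

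Glycogen is the branched glucose store of the liver, filled after meals and emptied between them to keep blood glucose up. Glycogen synthase adds glucose from UDP-glucose to a growing chain, the branching enzyme makes the branch points, and glycogen phosphorylase releases glucose 1-phosphate from the chain ends. Phosphorylation turns phosphorylase on and synthase off. Protein phosphatase 1 (PP1) reverses both, and the PPP1R3 subunits hold it on the glycogen particle.

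Total counts ran from 16329425 to 25349148 over the 14 libraries. Levels are in CPM, a gene's share of the library's TMM-scaled total, with SDs over n = 4 control and n = 5 libraries of each other diet, and differences are log2 fold changes with an SE. A gene was called at an adjusted p under 0.05 in edgeR's quasi-likelihood test, adjusted over all 14627 genes after Benjamini and Hochberg. On the leading principal components of all genes, high-fat replicate 1 lay between the controls and the rest of its group, and ketogenic replicate 5 lay away from the other ketogenic libraries. All 8 hepatocyte markers were detected in every library, and their summed level was 146972 to 176906 CPM in control livers, 102161 to 136076 CPM after the high-fat diet and 79093 to 130729 CPM after the ketogenic diet, with no overlap between control and either diet. Of these 8 markers 1 was called lower on the high-fat diet (Cps1, -0.93) and 2 on the ketogenic diet (Cps1, -1.23, and Serpina1c, -0.84). Alb made up most of the summed level and was not called on the high-fat (-0.39, adjusted p = 0.189) or the ketogenic diet (-0.47, adjusted p = 0.116). Its values overlapped control on the high-fat diet and lay below control on the ketogenic diet. Stellate cell markers (4 genes) summed to 209 to 259 CPM in control, 283 to 358 CPM in high-fat and 234 to 389 CPM in ketogenic livers. The stellate marker Dcn was called higher on the high-fat diet (0.52). Leukocyte markers (5 genes) summed to 70.7 to 137, 126 to 229 and 77.1 to 409.6 CPM in the same order of diets, with none called. Kupffer cell markers (5 genes) summed to 209 to 333, 222 to 385 and 169 to 508 CPM, with Timd4 called lower on the ketogenic diet (-1.71). Endothelial markers (4 genes) summed to 154 to 203, 158 to 200.1 and 132 to 179.8 CPM, with Kdr called lower on both diets (-0.47 and -0.60). Erythroid markers (3 genes) summed to 431 to 789, 457 to 1758 and 212 to 583 CPM, with none called. In bulk tissue, fewer cells of a type and less RNA per cell cannot be told apart. Adipocyte markers (4 genes) summed to 2.23 to 16.2 CPM in control livers, 12.2 to 46.2 CPM on the high-fat and 11.1 to 169.8 CPM on the ketogenic diet. Cfd made up most of these sums, with means of 4.83, 21.1 and 64.8 CPM, and was called higher on the ketogenic diet (3.73). The other adipocyte markers stood at -1.68 (Adipoq), -1.21 (Plin1) and -0.06 (Lep) on that diet and were not called. The 8 pancreatic acinar markers summed to 23.8 to 1355, 93.4 to 619 and 6.85 to 299.6 CPM in that order, and 7 skeletal muscle markers to at most 131 CPM in any library. The part of any of these cells in the results was not tested.

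Windows of regulatory sequence are shown for 3 members, each the 250 bases upstream of a RefSeq transcription start (build GRCm38.p6), 5′ to 3′ in the direction of transcription. Pygl is shown because its RNA fell on both fat-rich diets, Gbe1 because it was the member that rose, and Ppp1r3c because it varied widely between libraries of 1 diet. The promoter table held 7 of the 9 members, and Gys2 and Ppp1r3b had no entry. The windows are chr12:70227684-70227933 on the minus strand, chr16:70313699-70313948 on the plus strand and chr19:36736605-36736854 on the minus strand, and capitals mark matches to the motifs described after them.
Pygl: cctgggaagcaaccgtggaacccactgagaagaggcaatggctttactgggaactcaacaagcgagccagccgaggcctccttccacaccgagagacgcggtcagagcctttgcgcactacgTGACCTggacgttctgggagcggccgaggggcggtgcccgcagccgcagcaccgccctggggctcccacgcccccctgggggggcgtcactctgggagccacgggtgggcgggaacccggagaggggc
Gbe1: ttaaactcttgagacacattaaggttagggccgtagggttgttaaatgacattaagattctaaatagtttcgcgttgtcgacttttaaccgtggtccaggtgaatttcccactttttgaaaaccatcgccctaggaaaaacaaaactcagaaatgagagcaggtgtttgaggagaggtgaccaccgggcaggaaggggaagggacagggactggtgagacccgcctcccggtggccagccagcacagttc
Ppp1r3c: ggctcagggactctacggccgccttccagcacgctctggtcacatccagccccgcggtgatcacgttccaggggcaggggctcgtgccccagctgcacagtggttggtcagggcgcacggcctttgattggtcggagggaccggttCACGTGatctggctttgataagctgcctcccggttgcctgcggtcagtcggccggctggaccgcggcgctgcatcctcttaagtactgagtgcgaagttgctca

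Both strands of the 8 windows of the 7 members (Ugp2 has 2 start sites) were searched for the E-box CACGTG, the forkhead motif TGTTTAC and the nuclear receptor element AGGTCA. The E-box stood only in the window of Ppp1r3c, 104 to 99 bases upstream of the start, and 6.02% of all 32851 windows in the table hold it. The nuclear receptor element stood only in that of Pygl, on the opposite strand, 128 to 123 bases upstream, against 14% of all windows. The forkhead motif was in none of the 8 windows, against 3.17% of all. These are matches of letters and not binding sites. GC content was 69.2% for Pygl, 48.8% for Gbe1 and 64.4% for Ppp1r3c.

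On the high-fat diet, glycogen synthase, glycogen phosphorylase and the phosphatase subunit Ppp1r3b fell, and the branching enzyme Gbe1 rose, against the control diet. Of the 9 members, 1 rose and 3 fell, where 12% of all genes tested were called, 6.95% higher and 5.01% lower. Scaled by library totals, all genes split into 1302 higher and 420 lower, against 1016 and 733 with TMM, and the median log2 fold change over all genes moved by 0.13. The median log2 fold change of the members was -0.30, beside 0.0075 over all genes. Each of the 4 calls was lost without some single library, and no member was called without high-fat replicate 3, high-fat replicate 5 or control replicate 4, where 8.17%, 8.19% and 6.28% of all genes were called.

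In the synthesis branch, Gys2, the liver glycogen synthase, stood at 295, 442, 358 and 451 CPM in control replicates 2 to 5. The 5 high-fat libraries held 298, 245, 260, 262 and 172 CPM of Gys2 in replicates 1 to 5. All but 1 of the high-fat values lay below the lowest control, and high-fat replicate 1 lay just above it. The means were 247 ± 46.6 and 386 ± 74.0 CPM, a log2 fold change of -0.64 ± 0.18 (SE, adjusted p = 0.0320). The call held without high-fat replicate 1 or control replicate 2 and was lost without any of the other 7 libraries (adjusted p from 0.0569 to 0.0982), as it was with the library number as covariate (adjusted p = 0.0624).

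Gbe1, the branching enzyme, was at 175, 174, 171 and 222 CPM in control replicates 2 to 5. In high-fat replicates 1 to 5 it was at 210, 301, 248, 266 and 240 CPM. Only control replicate 5 and high-fat replicate 1 overlapped. Its mean went from 185 ± 24.4 to 253 ± 33.7 CPM, a log2 fold change of 0.45 ± 0.14 (adjusted p = 0.0490). This call, the nearest to the threshold, held without control replicate 5 or high-fat replicate 1 and was lost without any of the other 7 libraries (adjusted p from 0.0729 to 0.140). It was also lost with median-of-ratios factors, without the filter, with the library number as covariate and with control replicate 1 included (adjusted p from 0.0503 to 0.0849). Ugp2, which makes UDP-glucose, was at 351, 496, 441 and 618 CPM in controls and 293, 449, 390, 393 and 407 CPM in high-fat libraries. These ranges overlapped, and the difference did not pass (-0.30 ± 0.17, 95% interval -0.67 to 0.06, adjusted p = 0.271).

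Pygl, the liver glycogen phosphorylase, was the member with the tightest control values, at 795, 807, 829 and 889 CPM. The high-fat libraries held 664, 659, 512, 638 and 547 CPM of Pygl, all below every control. Over all genes, 6.79% were lower with no overlap between these groups. The log2 fold change of Pygl was -0.46 ± 0.12 (adjusted p = 0.0242). Leaving out high-fat replicate 3 or 5, or one of control replicates 3 to 5, ended its call at adjusted p from 0.0522 to 0.0717. Library totals (-0.33, adjusted p = 0.0690), no filter (adjusted p = 0.0557) and the library number as covariate (adjusted p = 0.0557) also ended it. Of the kinase that activates phosphorylase, the alpha subunit gene Phka2 was at 24.1 ± 2.80 against 23.6 ± 6.20 CPM (0.03 ± 0.16, interval -0.31 to 0.37, adjusted p = 0.924). The catalytic gamma subunit gene Phkg2 was at 15.9 ± 2.05 against 19.9 ± 1.27 CPM (-0.32 ± 0.13, interval -0.60 to -0.05, adjusted p = 0.120).

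Ppp1r3b, the main PP1 glycogen-targeting subunit of hepatocytes, was at 678, 711, 785 and 828 CPM in control replicates 2 to 5. High-fat replicate 1 held 707 CPM of Ppp1r3b, inside the control range, while replicates 2 to 5 held 479, 399, 403 and 416 CPM. The log2 fold change was -0.64 ± 0.17 (adjusted p = 0.0224), and -0.82 (adjusted p = 0.00113) without high-fat replicate 1. Leaving out one of high-fat replicates 3 to 5, or control replicate 4 or 5, ended the call at adjusted p from 0.0582 to 0.0683.

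Ppp1r3c, the subunit also called protein targeting to glycogen, ran from 28.5 to 81.3 CPM in controls and from 36.4 to 79.98 CPM in high-fat libraries. Its means were nearly equal, and the interval spanned changes of either sign (0.01 ± 0.34, interval -0.72 to 0.73, adjusted p = 0.991). Ppp1r3g, another such subunit, was close to the detection limit, with 2 to 7 counts per control library and 4 to 35 per high-fat library. It passed the filter on low counts through 4 high-fat and 2 ketogenic libraries, with 0 controls above the cutoff of 0.487 CPM, so its selection leaned on the high-fat group. It averaged 0.828 ± 0.524 CPM in high-fat and 0.244 ± 0.134 CPM in control libraries and did not pass (1.75 ± 0.90, interval -0.17 to 3.67, adjusted p = 0.224).

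**Figure D1:**
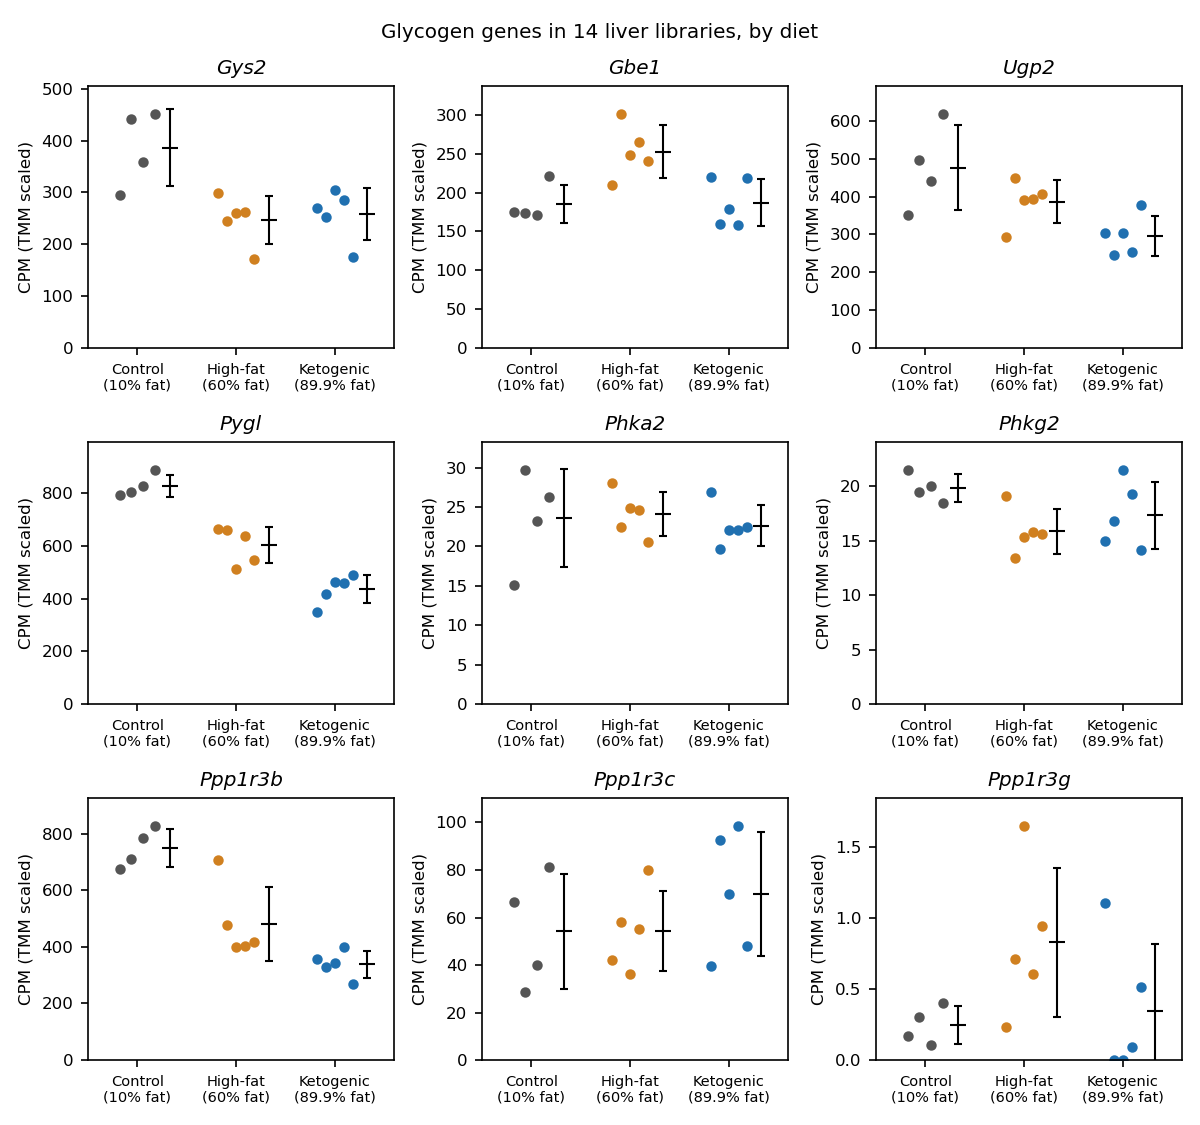
Level of the 9 genes in each library (CPM after TMM scaling, linear axes from 0), with points in order of replicate number and, beside them, the mean and SD of each diet (n = 4, 5 and 5; the SD of Ppp1r3g in ketogenic libraries is cut off at 0). All high-fat and ketogenic values of Pygl lie below the lowest control of 795 CPM, and high-fat replicate 1 is the 1 high-fat library in the control range for Ppp1r3b.

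On the ketogenic diet, Gys2, Pygl and Ppp1r3b fell against control, and so did Ugp2. Of the 9 members 4 fell and 0 rose, where 12.1% of all genes were called, 4.6% lower and 7.47% higher. Pygl and Ppp1r3b fell to 0.526 and 0.452 times the control level, and both were called in every alternative run. With library totals 2 members were called, beside 15% of all genes. All genes then split into 1826 higher and 368 lower, against 1093 and 673 with TMM, and the median gene shifted by 0.18. The members' median log2 fold change was -0.20, beside 0.03 over all genes. This comparison uses the same 4 control libraries as the one before it.

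Ppp1r3b was at 356, 330, 344, 400 and 267 CPM in ketogenic replicates 1 to 5, all below the lowest control value of 678 CPM, where 5.17% of all genes were lower with no overlap. Its log2 fold change was -1.14 ± 0.17 (adjusted p = 0.000418), and its mean was 2.21-fold lower by the fit. Leaving out each library in turn kept the adjusted p between 0.000444 and 0.00228. Pygl was at 351, 418, 464, 459 and 490 CPM, also below every control. Its log2 fold change was -0.93 ± 0.12 (adjusted p = 0.000188), and the adjusted p stayed between 8.74e-05 and 0.00105 without any 1 library.

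Ugp2 was at 303, 246, 304, 254 and 377 CPM in ketogenic livers, and only the highest of these, in replicate 5, lay above the lowest control of 351 CPM. Its log2 fold change was -0.68 ± 0.17 (adjusted p = 0.0161), which no longer passed without control replicate 5 (-0.54, adjusted p = 0.0691) or under library totals (-0.49, adjusted p = 0.108). Gys2 was at 269, 252, 306, 285 and 175 CPM, with replicate 3 above the lowest control and the other 4 below it. Its log2 fold change was -0.59 ± 0.18 (adjusted p = 0.0476). Of the 9 libraries, only control replicate 2 and ketogenic replicate 3 could be left out without losing that call (adjusted p from 0.0560 to 0.145 for the rest). Library totals, the library number as covariate, a fit of only these diets, and leaving out high-fat replicate 1 and ketogenic replicate 5 together also ended it (adjusted p from 0.0596 to 0.0752).

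Gbe1 was at 220, 160, 178, 158 and 219 CPM in ketogenic libraries and did not pass (0.02 ± 0.14, interval -0.28 to 0.31, adjusted p = 0.957). Phka2 (-0.06 ± 0.16, interval -0.40 to 0.28, adjusted p = 0.840) and Phkg2 (-0.20 ± 0.13, interval -0.48 to 0.08, adjusted p = 0.340) did not pass either. Ppp1r3c was at 39.5, 92.4, 70.0, 98.5 and 48.1 CPM, with 2 libraries above and 3 within the control range (0.37 ± 0.34, interval -0.36 to 1.09, adjusted p = 0.511). Ppp1r3g had 26, 0, 0, 2 and 14 counts in ketogenic replicates 1 to 5. The 2 libraries without a count allow up to 0.145 and 0.153 CPM at a limit of 3 counts each, which covers counting error only. Its difference had the widest interval of the members (0.53 ± 0.94, interval -1.46 to 2.53, adjusted p = 0.748).

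**Figure D2:**
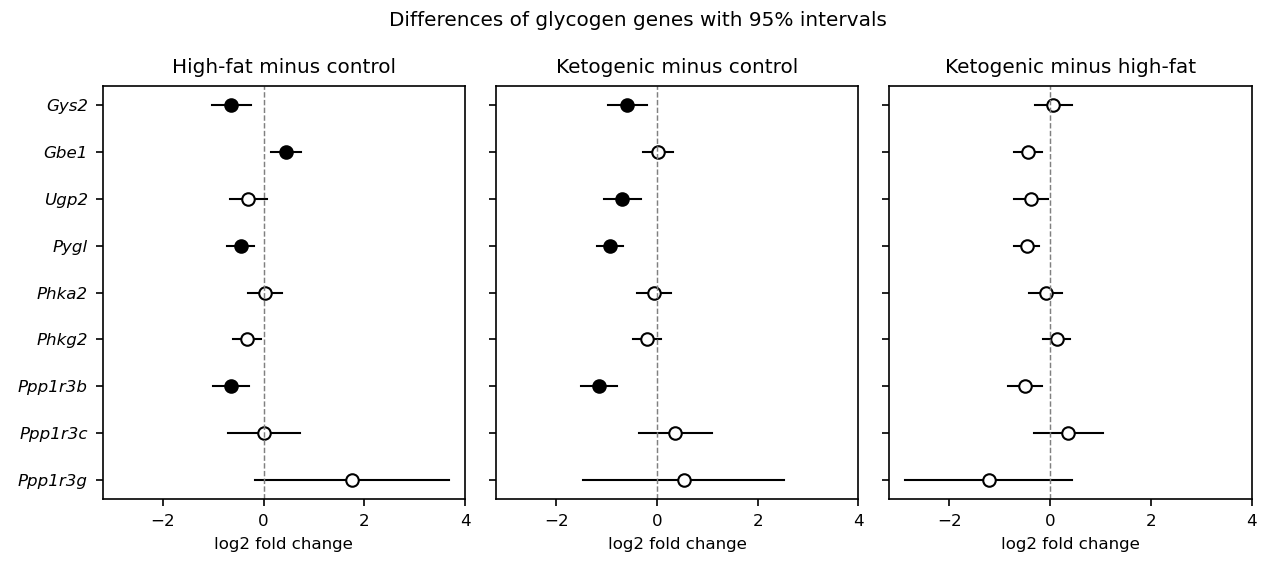
Log2 fold change of each gene in the 3 comparisons, with bars for the 95% interval; filled points passed an adjusted p of 0.05 and open points did not. Pygl and Ppp1r3b lie at -0.93 and -1.14 in ketogenic against control livers, Gbe1 is the filled point above 0 in high-fat against control, and no point is filled in ketogenic against high-fat livers.

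Ketogenic and high-fat livers were then compared directly, which also tests whether the effects of these diets against control differ. No member was called by edgeR, where 0.0615% of all genes were. At an unadjusted p under 0.05, 4 members were lower (Pygl, Gbe1, Ppp1r3b and Ugp2) and 0 higher, where 3.32% of all genes were lower and 5.39% higher. Pygl was lower in every ketogenic library than in any high-fat library, 490 CPM at most against 512 CPM at least, and 0.889% of all genes were lower without overlap. Its log2 fold change was -0.47 ± 0.12 (adjusted p = 0.154). DESeq2 called it (adjusted p = 0.00495), the 1 member among 1.19% of genes called by that tool. The edgeR test also called it without ketogenic replicate 5 (adjusted p = 0.0368, with 2.19% of genes called).

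The remaining differences between the fat-rich diets did not pass. Gbe1 was at -0.43 ± 0.13 (adjusted p = 0.271), Ppp1r3b at -0.50 ± 0.16 (adjusted p = 0.292) and Ugp2 at -0.38 ± 0.16 (adjusted p = 0.509). Gys2, called lower on both diets against control, stood at 0.06 ± 0.17 between them (interval -0.31 to 0.42, adjusted p = 0.977). Ppp1r3c was at 0.36 ± 0.32 (adjusted p = 0.841), Phkg2 at 0.13 ± 0.12 (adjusted p = 0.868) and Phka2 at -0.09 ± 0.15 (adjusted p = 0.944). Ppp1r3g, close to the detection limit, was at -1.22 ± 0.78 (interval -2.88 to 0.43, adjusted p = 0.717). Without high-fat replicate 1 and ketogenic replicate 5 together, a choice made after seeing the data, 3 members were called lower: Pygl (-0.48, adjusted p = 0.0414), Gbe1 (-0.56, adjusted p = 0.0293) and Ugp2 (-0.57, adjusted p = 0.0472). In that fit 4.43% of all genes were called. Leaving out high-fat replicate 1 moved the difference of Ppp1r3b to -0.32.

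Ratios of counts of 2 members within a library do not depend on how libraries are scaled. They are given as descriptions, with no test. How often the ratio of other gene pairs separates the diets was not computed. The log2 ratio of Gbe1 to Ugp2 was -1.01, -1.51, -1.37 and -1.48 in control replicates 2 to 5. It was -0.48, -0.58, -0.66, -0.56 and -0.76 in high-fat and -0.46, -0.62, -0.77, -0.68 and -0.78 in ketogenic libraries. So every library of either fat-rich diet had more Gbe1 per Ugp2 count than any control. Against control, Gbe1 was called higher on the high-fat diet and Ugp2 lower on the ketogenic diet. Ugp2 also stood at -0.30 on the high-fat diet without passing, and the main fit called neither gene between the fat-rich diets. The log2 ratio of Ppp1r3b to Ppp1r3c was 3.91 ± 0.66 in control, 3.16 ± 0.64 in high-fat and 2.36 ± 0.52 in ketogenic livers, and all 5 ketogenic values, at most 3.17, lay below the lowest control of 3.34. The log2 ratio of Gys2 to Pygl was -1.12 ± 0.25, -1.30 ± 0.27 and -0.78 ± 0.42 in that order. Ketogenic replicates 1 to 4 lay at -0.38, -0.73, -0.60 and -0.69, above all control and high-fat libraries, and replicate 5 at -1.48 lay below every control.

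**Figure D3:**
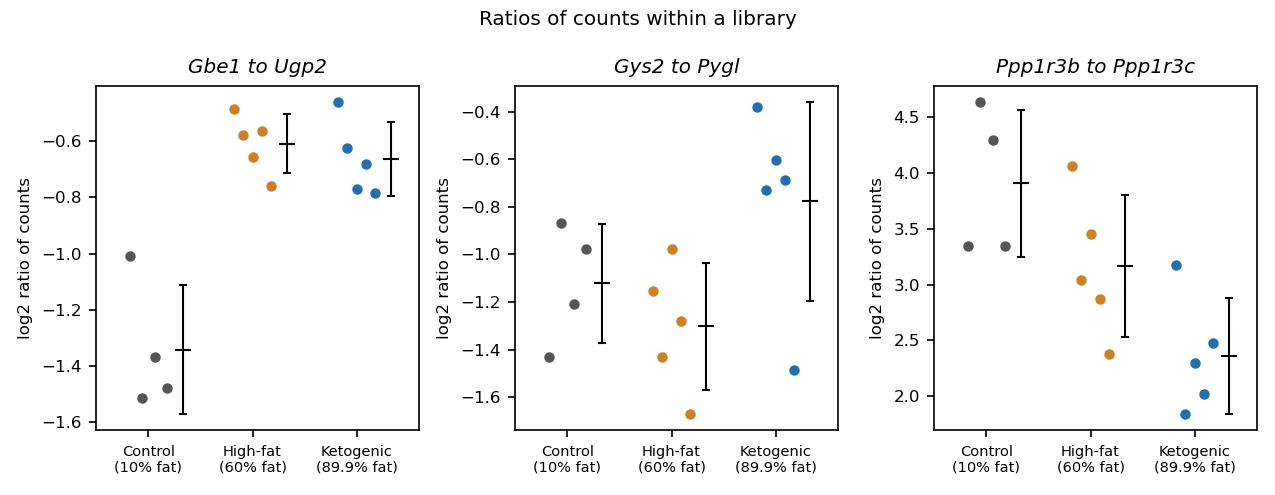
Log2 ratio of the counts of 2 members in each library, with points in order of replicate number and the mean and SD of each diet beside them (n = 4, 5 and 5). For Gbe1 to Ugp2 the controls lie at or below -1.01 and all other libraries at or above -0.78; for Gys2 to Pygl ketogenic replicate 5 lies apart at -1.48.

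Spread between libraries of 1 diet differed among the members. The coefficient of variation of Pygl was 5.02% in control, 11.5% in high-fat and 12.5% in ketogenic libraries, and that of Gys2 19.1%, 18.8% and 19.5%. Ppp1r3c varied by 44.6%, 31.1% and 37.5%, although each library held at least 560 of its counts. For Ppp1r3b the high-fat group varied the most, at 27.2%, with 9.13% in controls.

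Other genes of glycogen metabolism were read from lists of 47 genes, of which 45 were tested. Against control, 2 rose and 3 fell on the high-fat diet (median log2 fold change 0.10), and 2 rose and 5 fell on the ketogenic diet (median -0.07). Taken in either direction, these shares lie near the 12% and 12.1% called over all genes. By direction, 6.95% of all genes were called higher and 5.01% lower on the high-fat diet. On the ketogenic diet these were 7.47% and 4.6%, so the 5 of 45 that fell there are a larger share than among all genes. None of the 45 was called between the fat-rich diets. Of the 5 other synthesis genes, 1 was called: Gyg, the glycogenin that primes new chains, rose on the ketogenic diet from 3.89 ± 0.199 to 6.48 ± 1.40 CPM (0.74 ± 0.17, adjusted p = 0.0110). None of the 3 other breakdown genes listed was called, among them the phosphorylases Pygb and Pygm. Of 6 tested PP1 subunits 1 was called, the targeting subunit Ppp1r3e, lower on the ketogenic diet (-0.53 ± 0.16, adjusted p = 0.0365). The call ended under library totals (adjusted p = 0.160), without the filter (adjusted p = 0.0842) and without any of control replicates 3 to 5 or ketogenic replicates 2, 4 and 5 (adjusted p from 0.0546 to 0.124). The catalytic subunits Ppp1ca, Ppp1cb and Ppp1cc and the 5 other tested phosphorylase kinase genes, calmodulins included, gave 0 calls on either diet.

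Among genes of glycogen quality and lysosomal routing, Gabarapl1, an autophagy protein, rose on both diets, from 158 ± 43.5 to 281 ± 51.7 CPM on the high-fat (0.83 ± 0.19, adjusted p = 0.0116) and to 273 ± 47.3 CPM on the ketogenic diet (0.79 ± 0.19, adjusted p = 0.0136). Without control replicate 4 the latter did not pass (adjusted p = 0.0555). Stbd1, which tethers glycogen to membranes, and the Lafora disease genes Epm2a and Nhlrc1 were not called. Of 14 upstream kinases and receptors, the AMP-activated kinase subunit genes Prkaa2 and Prkab1 fell on both diets and the other 12 were not called, among them Gsk3a, Gsk3b, the glucagon receptor Gcgr and the insulin receptor Insr. Prkaa2 was at -0.48 ± 0.14 (adjusted p = 0.0346) on the high-fat and -0.55 ± 0.14 (adjusted p = 0.0167) on the ketogenic diet, and Prkab1 at -0.44 ± 0.12 (adjusted p = 0.0279) and -0.47 ± 0.12 (adjusted p = 0.0195). None of these 4 calls passed when scaled by library totals (adjusted p from 0.154 to 0.209). On the high-fat diet Prkaa2 was also lost without any of replicates 3 to 5 of either group (adjusted p from 0.0578 to 0.117) and Prkab1 without control replicate 2 or 3 or high-fat replicates 3 to 5 (0.0535 to 0.0991). Control replicate 3 carried both ketogenic calls (adjusted p without it 0.0641 for Prkaa2 and 0.0740 for Prkab1), and Prkaa2 also failed without control replicate 4 (adjusted p = 0.0507).

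Genes that move glucose 6-phosphate in and out of the pathway held 1 higher and 1 lower of 8 on the high-fat and 2 lower on the ketogenic diet. Slc37a4, which carries glucose 6-phosphate into the endoplasmic reticulum, fell from 345 ± 24.6 to 197 ± 55.8 CPM on the ketogenic diet (-0.81 ± 0.19, adjusted p = 0.0106). On the high-fat diet it was at -0.60 ± 0.19 (adjusted p = 0.0493), a call lost without any 1 of the 8 libraries other than high-fat replicate 1 (adjusted p from 0.0640 to 0.124). Gckr fell by 0.39 ± 0.12 on the ketogenic diet (adjusted p = 0.0386), a call that held only without control replicate 2 or ketogenic replicate 5 and was otherwise lost on leaving out 1 library (adjusted p from 0.0610 to 0.0955) or with library totals (adjusted p = 0.422). Hk2, a hexokinase of other tissues, rose on the high-fat diet from 2.53 ± 0.336 to 9.76 ± 3.97 CPM (1.94 ± 0.58, adjusted p = 0.0455), which failed without any 1 of the 8 libraries other than high-fat replicate 1 (adjusted p from 0.0638 to 0.110) and without the filter (adjusted p = 0.128). The glucose 6-phosphatase gene G6pc and the glucose transporter gene Slc2a2 were not called.

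**Figure D4:**
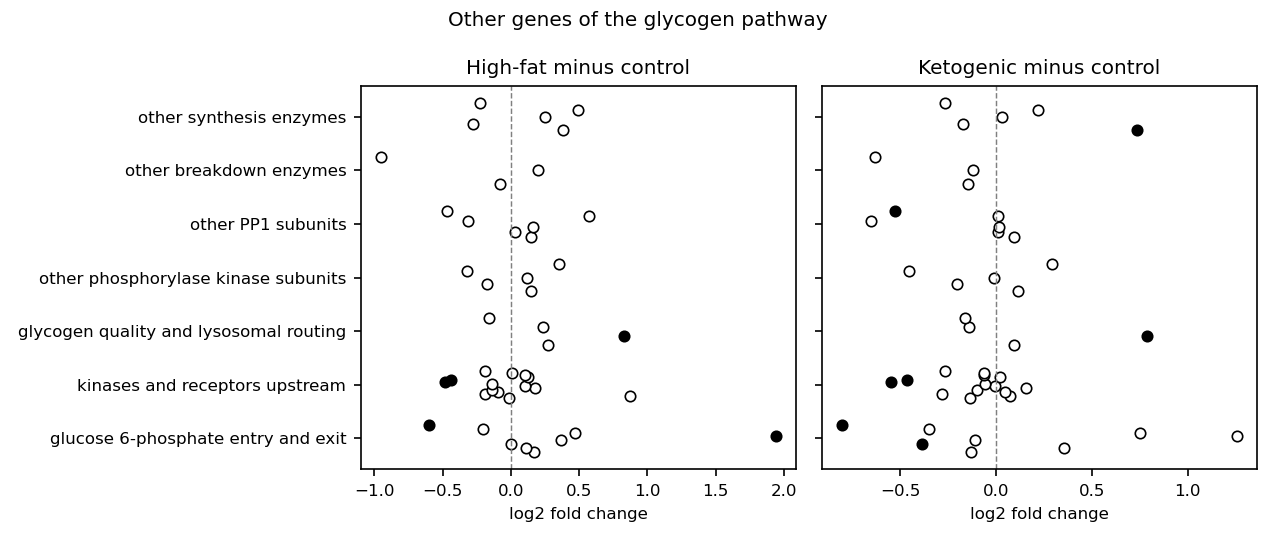
Log2 fold change of the 45 other genes tested, by list, in high-fat against control (left) and ketogenic against control livers (right); filled points passed an adjusted p of 0.05. Both panels use the same 4 control libraries. The filled points farthest from 0 are Hk2 at 1.94 on the left and Slc37a4 at -0.81 on the right.

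For each called member, the genes with the most similar profile over the 14 libraries were listed by the mean absolute difference of centred log2 CPM, among 11654 candidates. Pygl lay close to Ctnnbip1, an inhibitor of beta-catenin (0.094), where its own mean absolute deviation was 0.35. Ppp1r3b (own deviation 0.46) lay closest to the mitochondrial carrier Slc25a44 (0.12) and to Dgat2, which makes triglyceride (0.14). For Gys2 (0.29) these were the calcium sensor Stim2 (0.11) and the growth hormone receptor Ghr (0.11). For Gbe1 (0.24) they were the quinone reductase Nqo2 (0.097) and Esam, an endothelial adhesion protein (0.12). For Ugp2 (0.30) they were Arl15 (0.13) and Dlat, a subunit of pyruvate dehydrogenase (0.15). All libraries share the diet groups, so genes that respond to diet alike lie close by this measure.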

How the data were processed

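Liver poly(A) RNA was sequenced from libraries that keep strand, per the labels' protocols. The authors deposited raw read counts for each Ensembl gene ID, as whole numbers that were not normalized. Tools named in the submitters' processing notes are cutadapt 1.16, STAR 2.7.9a, featureCounts 1.6 and DESeq2 1.36.0, with build GRCm39. The sources used here give neither the annotation nor the strand setting of the counting. Symbols from a GRCm38 annotation matched 98.2% of the IDs tested. In it, exons of Phkg2, Phka2 and Ugp2 overlap genes on the opposite strand, which hold at most 207 counts over all 15 libraries. The overlap takes up 21.9% of the exon bases of Phkg2 (with Ccdc189), 1.9% of those of Phka2 and 2.5% of those of Ugp2. Its effect on the counts of these members was not tested.

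Low-count genes were removed with filterByExpr (at least 10 counts, total at least 15). The 14 libraries were scaled with TMM (factors 0.886 to 1.22) and fitted together in edgeR 4.0.16 under R 4.3.3 (estimateDisp, then glmQLFit with robust = TRUE), and each pair of diets was compared by a two-sided glmQLFTest. The SE is the absolute log2 fold change over the square root of F. Alternatives were DESeq2 1.42.0, median-of-ratios factors, library totals, no filter, a replicate block, the library number as covariate, only 2 diets fitted, control replicate 1 included, and each library left out. The members and lists were chosen with earlier results of these data known. All 9 members are named whatever their result, genes of the lists where called, and for each called member the 2 most similar genes. Some genes that these rules name are not reported here.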

Additional observations from a re-analysis of the deposited data

Results flagged for a closer look

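Within the groups of 4 or 5 libraries, 3 of 60 sets of values had 1 library whose gap to its nearest neighbour took up more of the whole range than a 95% limit allows. Chance gives about 1 in 20, and here it was 5%. Gbe1 in control replicate 5, at 222 CPM, lay above the other controls, of which the nearest held 175 CPM. Ppp1r3b in high-fat replicate 1, at 707 CPM, lay above the other high-fat libraries, of which the nearest held 479 CPM. Gyg in ketogenic replicate 5 was at 8.90 CPM, with 6.45 CPM in the nearest library.

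Control replicate 1, which the submitters excluded as contaminated, was scaled together with the other 14 libraries and read on its own. Ugp2 was at 659 CPM there, above the 351 to 616 CPM of the other controls, and Ppp1r3g at 3.07 CPM, above their highest of 0.399 CPM. Pygl at 652 CPM and Ppp1r3b at 603 CPM lay below every other control, whose lowest values were 794 and 677 CPM, and the other 5 members lay within the range of the other controls.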

How the results depend on the processing

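Leaving out 1 library at a time gave 934 to 2145 called genes for high-fat against control, 1056 to 2201 for ketogenic against control and 1 to 315 for ketogenic against high-fat, against 1749, 1766 and 9, and the 315 came without ketogenic replicate 5. The members called ran from 0 to 4, from 2 to 4 and from 0 to 1, against 4, 4 and 0. For ketogenic against high-fat the count of genes was 173 with DESeq2, 15 with library totals, 26 without the filter, 15 with the replicate block, 3 with the library number as covariate and 1 with only these diets fitted. DESeq2 called 1 member there. The members called in high-fat against control were 2 without the filter, 2 with the replicate block and 1 with the library number as covariate; in ketogenic against control they were 2 with library totals. The cause was not tested. Without high-fat replicate 1 and ketogenic replicate 5, 3239 genes were called in high-fat against control and 636 in ketogenic against high-fat, with 3 members.

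No pairing of libraries by replicate number was seen, though this check cannot show that none exists. The deviations of same-numbered libraries from their group means correlated over 0.1 in 3 of 13 pairs (range -0.40 to 0.42). Among pairs with different numbers this held for 13 of 52 (range -0.49 to 0.44). Of 14 libraries, 3 matched best with one of their own number. With the replicate block the calls on Pygl (adjusted p = 0.0869) and Gbe1 (adjusted p = 0.0911) in high-fat against control were lost, and the other 6 calls on members held. Of the 12 calls on listed genes it ended 7, those on Prkaa2, Prkab1, Hk2 and Slc37a4 in high-fat and Ppp1r3e, Prkab1 and Gckr in ketogenic livers. The library number as covariate ended those on Prkaa2 and Slc37a4 in high-fat and Ppp1r3e in ketogenic livers, and fits of only 2 diets those on Ppp1r3e, Prkab1 and Gckr in ketogenic livers.

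Signs changed only for differences that were not called. Ppp1r3c in high-fat against control was at -0.0087 with DESeq2, -0.0082 with median-of-ratios factors and -0.0029 with 2 diets fitted, and at -0.21 to 0.27 with 1 library left out. Gbe1 in ketogenic against control was at -0.0058 with DESeq2, -0.0059 with median-of-ratios factors, -0.029 with control replicate 1 and -0.046 without high-fat replicate 1 and ketogenic replicate 5 (-0.065 to 0.11 with 1 left out). Phka2 was at 0.12 with library totals in ketogenic against control (-0.22 to 0.067 with 1 left out), and in high-fat against control at -0.0039 with the replicate block, -0.0016 with control replicate 1 and -0.026 without the pair of libraries (-0.13 to 0.16). Ppp1r3g in ketogenic against control was at -0.0055 with the replicate block and -1.21 with control replicate 1 (-0.53 to 0.85). Gys2 in ketogenic against high-fat ran from -0.049 to 0.17 with 1 left out and was at 0.25 without the pair of libraries. Phkg2 in high-fat against control passed without the pair of libraries (adjusted p = 0.0294). Ppp1r3g there reached an adjusted p of 0.0433 with only these diets fitted, but it entered that fit through its high-fat values alone, so this is not read as a call. With 2 to 35 counts where detected, Ppp1r3g is limited by depth.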
